A study of Mus musculus with 17 samples.

Results

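The 10 genes described here encode the core transcription factors of pancreatic β cell identity, and they were picked by symbol from the 55357 genes in the deposited transcript tables. They fall by role into 4 homeodomain or bZIP factors enriched in β cells (Pdx1, Mafa, Nkx6-1 and Mnx1), 4 factors shared by endocrine cell types of the islet (Neurod1, Nkx2-2, Isl1 and Pax6), the forkhead factor Foxa2 and the zinc finger factor Glis3. The estimated counts of their 55 annotated transcripts were summed per gene in each of the 17 samples. All 10 genes passed the filter on low counts, among 22784 genes tested.

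These factors bind the enhancers and promoters of genes that a β cell needs to make, store and release insulin, and most of them also regulate one another. PDX1, NEUROD1 and MAFA act directly on the insulin promoters, whereas NKX6-1, NKX2-2, PAX6 and ISL1 also keep genes of the other islet cell types repressed. MAFA and NKX6-1 are among the factors whose loss is a known early sign of β cell failure under chronic high glucose in diabetes.

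All mice were males on a C57BL/6 background. Control β cells (genotype "WT" in the labels) came from Tdtomato mice, in which RIP-Cre, a Cre recombinase under a rat insulin promoter, switches on a Rosa26 tdTomato reporter. Knockout β cells came from RIPCre+;Pcbp2Fl/Fl;Tdtomato mice, which carry the same Cre and reporter and in addition lose the RNA-binding protein PCBP2 in cells where Cre has acted (Pcbp2βKO cells). Both genotypes therefore carry RIP-Cre, and neither the age of the sequenced mice nor the number of animals behind a sample is given in the sources used here. Intact islets were kept for 72 hours in 2.8 mM (low) or 16.7 mM (high) glucose, after which tdTomato+ DAPI- cells were sorted and their polyA RNA was sequenced. The groups held 3 control samples at 2.8 mM, 4 control samples at 16.7 mM, 5 Pcbp2βKO samples at 2.8 mM and 5 Pcbp2βKO samples at 16.7 mM. The design asks whether high glucose changes these factors in control and in Pcbp2βKO β cells, and whether loss of PCBP2 changes them at either concentration. Nothing says that replicates came from separate animals, so p values measure the spread between these samples.

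Samples held 47385513 to 82419400 estimated counts. Pcbp2, the deleted gene, lay between 50.7 and 73.4 CPM, counts scaled to the library size, in control cells at 2.8 mM, between 35.0 and 45.4 in control cells at 16.7 mM, between 15.5 and 19.2 in Pcbp2βKO cells at 2.8 mM and between 5.81 and 10.03 in Pcbp2βKO cells at 16.7 mM. Every knockout sample was thus below every control sample. The 9 β cell markers together took 119420 to 123850 CPM in control and 67605 to 97515 CPM in Pcbp2βKO samples at 2.8 mM. These ranges did not overlap, and at 16.7 mM the sums were 273177 to 528697 and 359987 to 477455 CPM. The 7 α cell markers took from 714 to 2793 CPM in control samples and from 1379 to 9647 CPM in Pcbp2βKO samples. This sum mixes genes that differed in direction. In control samples Gcg was 625 to 2543 CPM at 2.8 mM and 260 to 1448 CPM at 16.7 mM. Ttr was 42.9 to 57.7 and 109 to 949 CPM there, and Gc was 5.02 to 33.9 and 61.3 to 476 CPM. The 2 samples with the most α cell marker counts were Pcbp2βKO replicates 2 and 4 at 2.8 mM. Markers of pancreatic polypeptide cells, which share Isl1, Pax6, Neurod1 and Nkx2-2 with β cells, summed to 369 to 1208 CPM in control samples, to 1431 to 7426 CPM in Pcbp2βKO samples at 2.8 mM and to 470 to 1456 CPM in Pcbp2βKO samples at 16.7 mM. Acinar, endothelial and stellate markers each summed to less than 7 CPM in every sample, and ductal markers to 691 to 1676 CPM. The ductal sums came almost wholly from Krt7, Krt18, Epcam and Spp1, since Krt19, Sox9 and Muc1 were at most 2.17, 1.07 and 0.594 CPM in any sample. Macrophage markers summed to 79.5 to 108 CPM in control and 27.4 to 55.6 CPM in Pcbp2βKO samples at 2.8 mM, and to 38.3 to 100.1 and 20.7 to 104 CPM at 16.7 mM. C1qa made up most of the control sums at 2.8 mM (66.5 to 92.5 CPM, against 12.7 to 21.8 CPM in Pcbp2βKO samples). Every other macrophage marker overlapped between genotypes there, with C1qb at 1.13 to 7.60 CPM in control and 2.59 to 19.7 CPM in Pcbp2βKO samples. Proliferation markers summed to 3.99 to 12.8 CPM in all samples at 2.8 mM, to 8.18 to 62.2 CPM in control samples at 16.7 mM and to 2.18 to 271 CPM in Pcbp2βKO samples at 16.7 mM. The part of these markers in the results for the factors was not tested. In bulk samples like these, fewer cells of a type cannot be told apart from less RNA per cell.

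Levels were first compared between genes, which needs a unit per length. TPM of protein-coding transcripts was used for this, since short noncoding transcripts of Nkx2-2, described further on, weigh heavily in TPM. Pax6, Neurod1 and Isl1 were the most abundant factors in every group, with group means between 31.3 TPM (Isl1, control, 16.7 mM) and 56.5 TPM (Isl1, Pcbp2βKO, 2.8 mM), and the ranges of neighbours among these genes overlapped in every group. Pdx1 followed with means between 26.4 and 32.1 TPM, and Foxa2 had means between 13.3 and 31.3 TPM. In Pcbp2βKO cells at 2.8 mM the mean of Foxa2 (31.3 TPM) was above that of Pdx1 (29.9 TPM), with overlapping ranges and Foxa2 higher in 3 of the 5 samples. Nkx2-2 had means between 9.29 and 16.1 TPM and Nkx6-1 between 4.88 and 5.70 TPM. The lowest places were held by Glis3 (2.41 to 4.56 TPM), Mafa (0.622 to 2.96 TPM) and Mnx1 (0.720 to 1.17 TPM). Mafa changed its neighbours in this order with glucose. It shared the last places with Mnx1 in both genotypes at 2.8 mM, where their ranges overlapped, and stood beside Glis3 at 16.7 mM, where the ranges of Mafa and Glis3 overlapped.

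**Figure D1:**
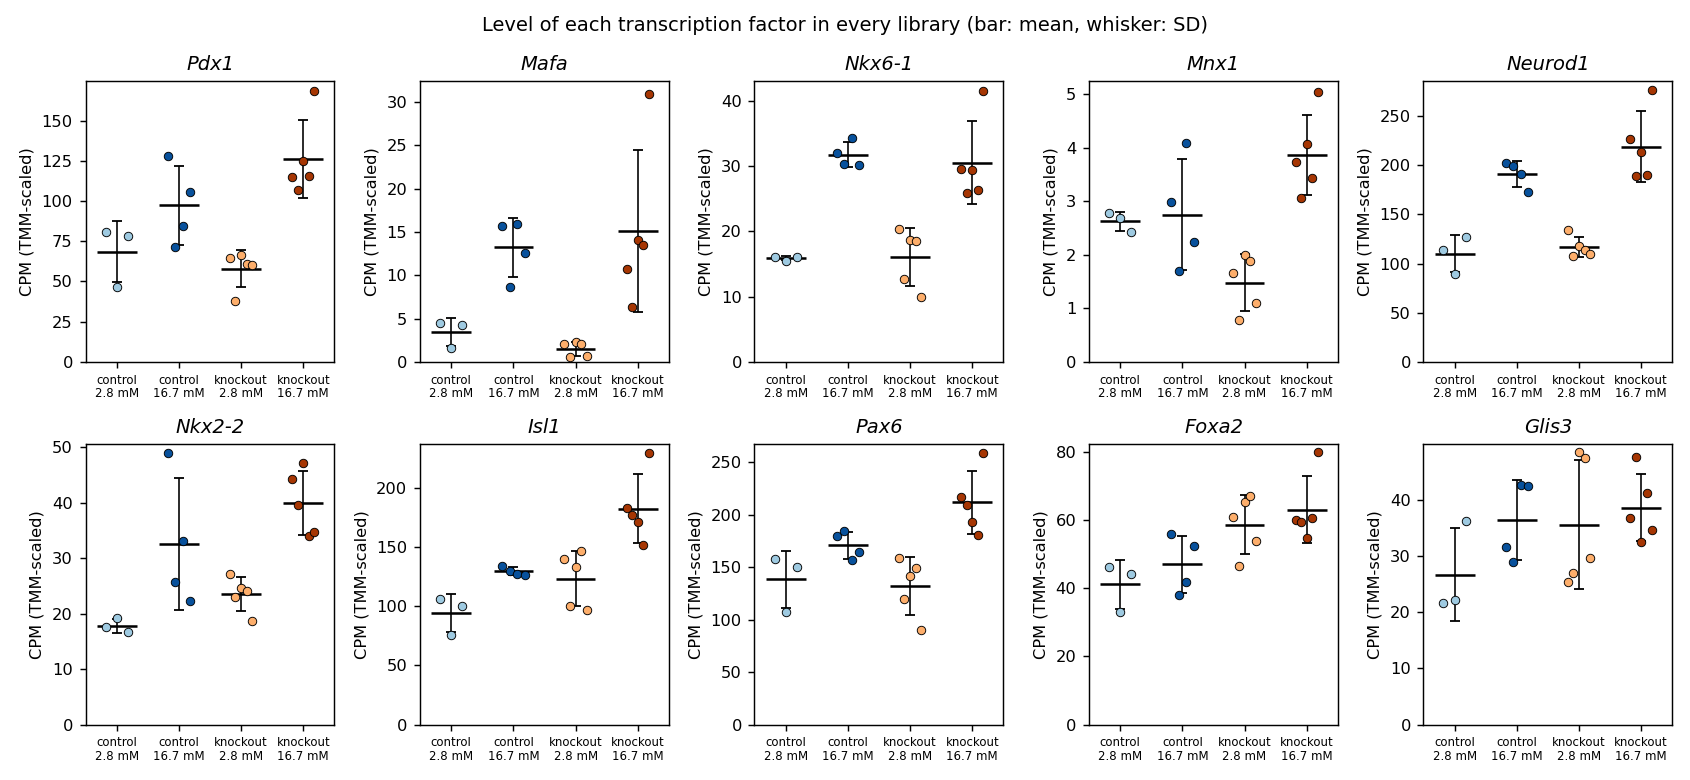
Levels of the 10 transcription factors in CPM (TMM-scaled library sizes), 1 panel per gene, with 1 point per sample and bars for the group mean and SD; the y axes start at 0 and differ between panels. Mafa lies between 0.587 and 4.47 CPM in all samples at 2.8 mM and between 6.32 and 30.9 CPM in all samples at 16.7 mM.

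High glucose in control β cells was examined next. Of the 10 factors, 4 were called higher at 16.7 mM than at 2.8 mM (more than 1.5-fold, adjusted p under 0.05), and none was lower. Among all genes tested, 13.8% were called in this comparison, and 7.15% of all genes were called higher. The median log2 fold change of the 10 factors was 0.48, beside 0.04 for all genes. Groups did not overlap for 5 of the 10 factors, beside 24.1% of all genes.

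Mafa, on chromosome 15 (75617339 to 75620077, minus strand, GRCm39), encodes a bZIP activator of the insulin genes that marks mature β cells, and it had the largest change of the 10. Its CPM was 4.47, 1.62 and 4.31 in control cells at 2.8 mM and 15.7, 8.68, 15.9 and 12.6 at 16.7 mM. No sample at low glucose reached the lowest at high glucose, and the log2 fold change was 1.93 ± 0.54 (SE, adjusted p = 0.0213, edgeR). This call was lost when control replicate 2 at 2.8 mM, which had the lowest Mafa, was left out (log2 fold change 1.59, adjusted p = 0.114). Mafa was also one of the genes with few reads, with 50 to 2404 counts per sample.

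Nkx6-1 (chromosome 5, 101806005 to 101813077, minus strand), a homeodomain factor that maintains β cell identity, was tightly grouped in control cells. Its CPM was 16.1, 15.5 and 16.1 at 2.8 mM and 32.0, 30.3, 34.3 and 30.2 at 16.7 mM, a log2 fold change of 1.00 ± 0.22 (adjusted p = 0.00544). Neurod1 (chromosome 2, 79282865 to 79287294, minus strand), a basic helix-loop-helix activator of insulin transcription, had 113.7, 89.4 and 126.7 CPM at 2.8 mM and 202.1, 198.7, 191.3 and 172.5 CPM at 16.7 mM. Both genes thus had clearly separated groups, and the log2 fold change of Neurod1 was 0.80 ± 0.15 (adjusted p = 0.00259). Nkx2-2, a homeodomain factor that represses the programs of other islet cells, had 17.6, 19.2 and 16.7 CPM at 2.8 mM and 49.1, 25.7, 33.1 and 22.4 CPM at 16.7 mM. Its samples at high glucose were widely spread, all of them above those at low glucose, and the log2 fold change was 0.87 ± 0.22 (adjusted p = 0.0118).

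The other 6 factors did not pass the test in control cells. Isl1 (chromosome 13, 116434817 to 116446235, minus strand), a LIM homeodomain factor of all islet endocrine cells, had 105.9, 75.6 and 100.5 CPM at 2.8 mM and 134.0, 129.9, 127.2 and 126.9 CPM at 16.7 mM. These groups did not overlap, and the log2 fold change was 0.46 with a 95% confidence interval from 0.09 to 0.83 (adjusted p = 0.0762). Pdx1 (chromosome 5, 147206769 to 147212658, plus strand), the homeodomain factor needed for pancreas formation and insulin transcription, had 80.7, 46.8 and 78.0 CPM at 2.8 mM and 127.9, 71.7, 84.6 and 105.4 CPM at 16.7 mM. Its groups overlapped, with a log2 fold change of 0.51 (interval −0.00 to 1.02, adjusted p = 0.16). The values for Glis3, Pax6, Foxa2 and Mnx1 were 0.45, 0.31, 0.19 and 0.07, and each of their intervals included 0.

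In Pcbp2βKO cells, 7 of the 10 factors were higher at 16.7 mM than at 2.8 mM and none was lower. Of all genes tested, 23.8% were called in this comparison and 13.4% were called higher. At an adjusted p under 0.05 with any fold change, 8 of the 10 factors and 30% of all genes passed. The median log2 fold change was 0.84 for the factors and 0.01 for all genes. Groups did not overlap for 8 of the 10 factors and for 21.6% of all genes. The control and Pcbp2βKO comparisons used different samples, and a larger number of calls in one of them is no test of a difference between genotypes.

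Mafa again changed most. It had 2.06, 0.587, 2.30, 2.01 and 0.719 CPM in Pcbp2βKO cells at 2.8 mM and 10.7, 6.32, 14.0, 13.5 and 30.9 CPM at 16.7 mM, a log2 fold change of 3.30 ± 0.46 (adjusted p = 5.37e-05). Replicate 5 at high glucose was far above the others. Mnx1 (chromosome 5, 29678032 to 29683636, minus strand), a homeodomain factor of motor neurons and β cells, had 1.65, 0.774, 1.99, 1.89 and 1.11 CPM at 2.8 mM and 3.73, 3.07, 4.06, 3.43 and 5.04 CPM at 16.7 mM. The groups did not overlap, with a log2 fold change of 1.38 ± 0.28 (adjusted p = 0.00113).

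Pdx1 had 64.8, 38.1, 66.6, 60.6 and 60.0 CPM at 2.8 mM and 115.0, 107.0, 124.6, 115.6 and 168.0 CPM at 16.7 mM in Pcbp2βKO cells. The groups were well apart, and the log2 fold change was 1.12 ± 0.20 (adjusted p = 0.000343). Nkx6-1, Neurod1 and Nkx2-2 rose by 0.93 ± 0.17, 0.91 ± 0.12 and 0.76 ± 0.18 on the log2 scale (adjusted p = 0.000652, 4.47e-05 and 0.00316). Pax6 (chromosome 2, 105499234 to 105530952, plus strand), the paired homeodomain factor required for hormone gene expression in islets, had 159.2, 119.6, 141.8, 149.4 and 90.2 CPM at 2.8 mM and 216.7, 209.3, 193.3, 180.7 and 259.2 CPM at 16.7 mM. Its groups did not overlap, and its log2 fold change was 0.68 ± 0.15 (adjusted p = 0.00237). Without Pcbp2βKO replicate 5 at 2.8 mM the change of Pax6 was 0.57, below the 1.5-fold threshold (adjusted p = 0.00447).

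Isl1 passed the test in Pcbp2βKO cells without reaching a fold change of 1.5. It had 140.2, 99.997, 133.1, 146.9 and 96.5 CPM at 2.8 mM and 183.4, 177.3, 171.3, 151.6 and 229.7 CPM at 16.7 mM, with a log2 fold change of 0.57 ± 0.14 (adjusted p = 0.00533). Foxa2 (chromosome 2, 147884797 to 147889005, minus strand), which opens chromatin for other factors, and Glis3 (chromosome 19, 28236251 to 28657667, minus strand), which takes part in insulin gene activation, had log2 fold changes of 0.10 (interval −0.21 to 0.42) and 0.12 (−0.33 to 0.56).

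**Figure D2:**
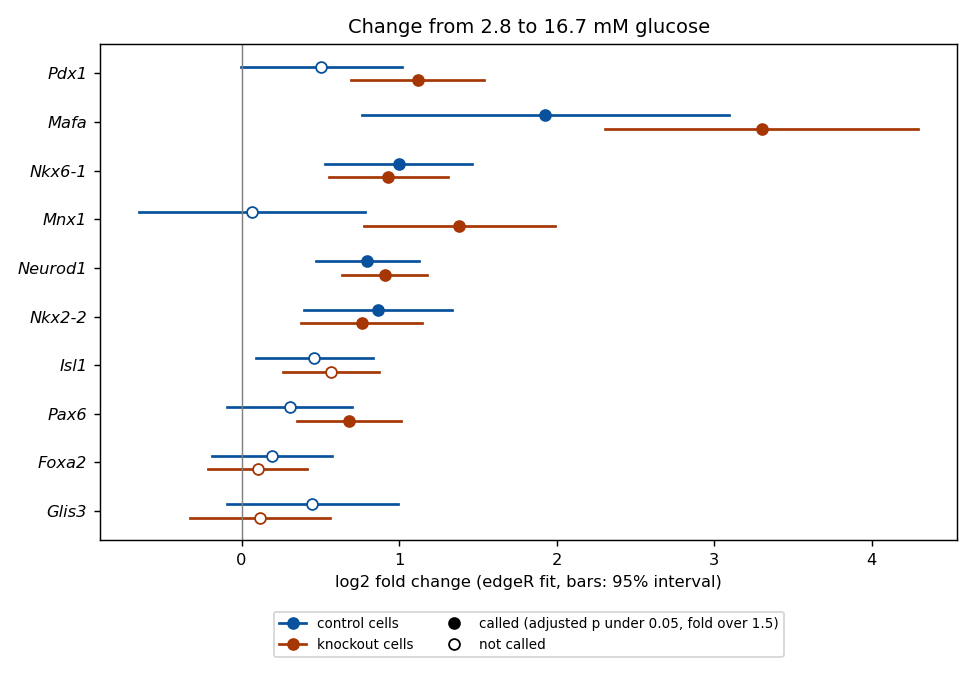
Log2 fold changes of the 10 factors at 16.7 mM against 2.8 mM glucose in control and in Pcbp2βKO cells, with 95% confidence intervals from edgeR; the x axis is in log2 units and the line at 0 marks no change. All 20 point estimates lie at or above 0.07, and Mafa is the largest in both genotypes (1.93 and 3.30).

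How libraries were scaled decided part of these results. Ins2 alone took 8.90% to 9.04% of the counts in control cells at 2.8 mM and 18.2% to 25.7% at 16.7 mM, and in Pcbp2βKO cells it took 4.92% to 10.4% and 20.7% to 24.7%. TMM factors, which place most genes at no change, ran from 0.752 to 1.29. With total counts in their place, the median of all genes moved to −0.35 in control and −0.47 in Pcbp2βKO cells, no factor was called in control cells, and Pdx1 (0.65), Mafa (2.85) and Mnx1 (0.90) were called in Pcbp2βKO cells. Of the 22784 genes tested, 4837 and 7851 were called with total counts in control and Pcbp2βKO cells. On the log2(TPM + 0.1) scale, which also divides by length, the median of all genes was −0.56 and −0.71. There, Mafa was the only factor called higher in a glucose comparison (2.06 in Pcbp2βKO cells), and Nkx2-2 and Foxa2 were called lower in control cells (−0.68 and −0.61) and, with Glis3, in Pcbp2βKO cells (−1.09, −0.95 and −0.88). On this scale 8902 and 12449 of the 22784 genes were called in control and Pcbp2βKO cells. Relative to the median of all genes, 10 of 10 factors lay above it in both genotypes with TMM and with total counts, and 7 of 10 did so in TPM. The rises reported here are therefore changes relative to other genes, and they are not amounts per cell.

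**Figure D3:**
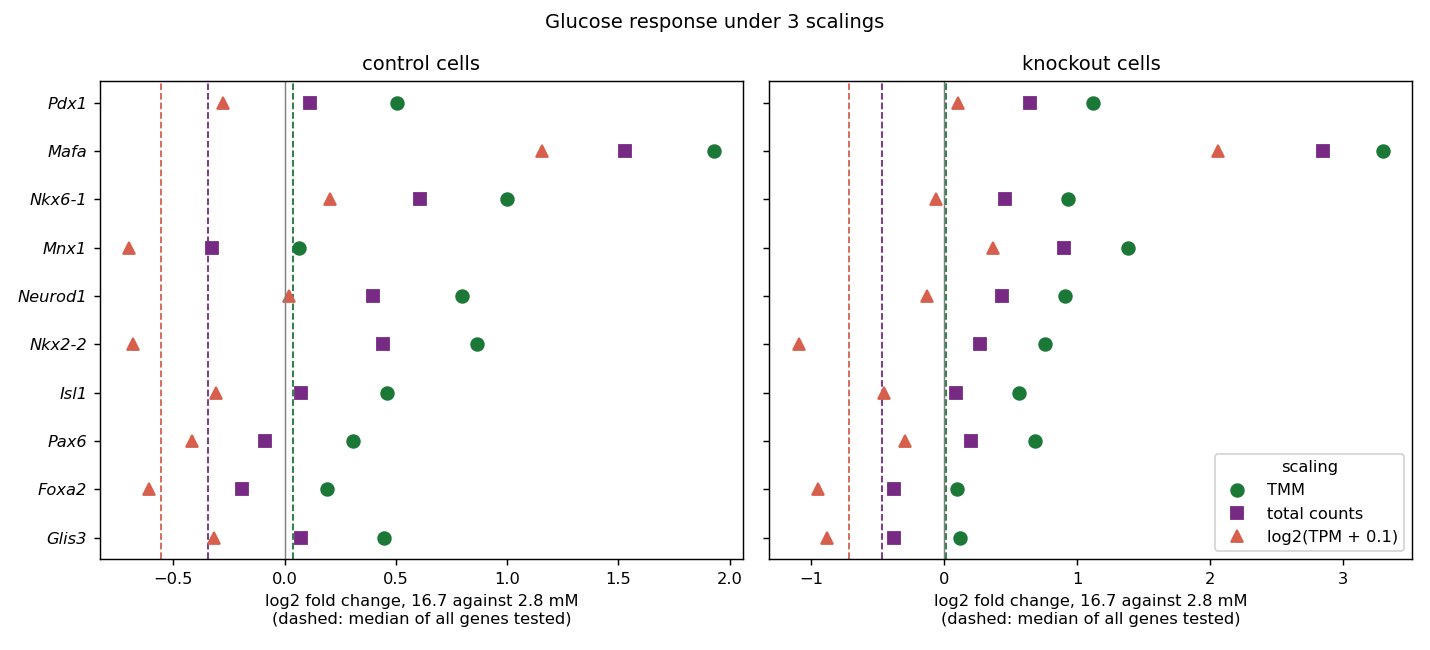
Log2 fold changes of the 10 factors for 16.7 against 2.8 mM glucose under different scalings of the libraries, for control and Pcbp2βKO cells; the mark for all genes gives their median under each scaling. The median of all genes is 0.04 and 0.01 with TMM, −0.35 and −0.47 with total counts, and −0.56 and −0.71 in log2(TPM + 0.1), and Mafa is above 0 under each of them.

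Fewer of the factors were called for the knockout than for glucose. At 2.8 mM, 0 of the 10 factors were called between Pcbp2βKO and control cells, beside 2.04% of all genes. At 16.7 mM, 0 of 10 were called, beside 1.71% of all genes. DESeq2 and limma-voom gave 0 factors in both comparisons too. At 2.8 mM the replicate number as a block called Mafa (−1.15) and an offset for transcript length called Nkx2-2 (0.84), and log2(TPM + 0.1) called Nkx2-2 at both concentrations (1.00 and 0.59). Of the 22784 genes tested, the block called 725 and the offset 423 at 2.8 mM, and log2(TPM + 0.1) called 328 at 2.8 mM and 299 at 16.7 mM. Groups did not overlap for 2 factors at 2.8 mM (Foxa2 and Mnx1), beside 10.9% of all genes, and for 1 at 16.7 mM (Isl1), beside 4.49%.

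At low glucose the 2 factors with the largest differences were lower in Pcbp2βKO cells. Mafa had a mean of 1.53 ± 0.81 CPM (SD, n = 5) against 3.47 ± 1.60 CPM (n = 3) in control cells, a log2 fold change of −1.18 with an interval from −2.22 to −0.14 (adjusted p = 0.291). Mnx1 had 1.48 ± 0.52 against 2.63 ± 0.18 CPM, a log2 fold change of −0.83 (interval −1.50 to −0.15, adjusted p = 0.236). At 16.7 mM the differences were 0.19 (−0.77 to 1.15) for Mafa and 0.49 (−0.14 to 1.12) for Mnx1, with intervals that include 0. The test of genotype and glucose together called 0 of the 10 factors, beside 0.00439% of all genes. Mnx1 had the smallest p of the 10 (difference of glucose responses 1.32 ± 0.43, adjusted p = 0.997). The same difference was 1.37 (−0.06 to 2.80) for Mafa and 0.61 (−0.04 to 1.26) for Pdx1. With DESeq2 the test of genotype and glucose together also called none of the factors.

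Foxa2 and Isl1 were the factors whose unadjusted intervals lay above 0 for Pcbp2βKO against control cells at both concentrations. Foxa2 had 46.3, 33.0 and 44.2 CPM in control cells and 60.9, 46.5, 65.5, 67.2 and 53.8 CPM in Pcbp2βKO cells at 2.8 mM. At 16.7 mM it had 55.9, 38.0, 42.0 and 52.4 CPM in control cells and 60.1, 59.6, 54.8, 60.6 and 80.1 CPM in Pcbp2βKO cells. The Pcbp2βKO samples lay above all control samples at 2.8 mM, and at 16.7 mM 4 of the 5 did so. Averaged over both concentrations, the knockout effect was 0.47 ± 0.12 for Foxa2 and 0.44 ± 0.11 for Isl1 (adjusted p = 0.0208 and 0.0238). These 2 factors passed at an adjusted p under 0.05, as did 5.49% of all genes, and none reached a fold change of 1.5, as did 4.19% of all genes. In a fit without control replicate 2 at 2.8 mM, neither passed (0.40 with adjusted p = 0.0785 for Foxa2, 0.38 with adjusted p = 0.0855 for Isl1). That sample had the lowest level of its group for 7 of the 10 factors. Islet α and polypeptide cells also express Foxa2 and Isl1, and the α cell marker sum was 1813 to 9647 CPM in Pcbp2βKO and 884 to 2793 CPM in control samples at 2.8 mM. The δ cell marker sum was 481 to 1320 CPM in Pcbp2βKO and 251 to 391 CPM in control samples there, and that of polypeptide cells was 1431 to 7426 against 1111 to 1208 CPM, so that the genotypes did not overlap for either list. At 16.7 mM the δ cell marker sum was 199 to 566 CPM in Pcbp2βKO and 148 to 336 CPM in control samples. The part of these cells in the differences of Foxa2 and Isl1 was not tested. Without the 2 samples with the most α cell marker counts, the averaged effects were 0.48 for Foxa2 (adjusted p = 0.02845) and 0.44 for Isl1 (adjusted p = 0.0383).

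**Figure D4:**
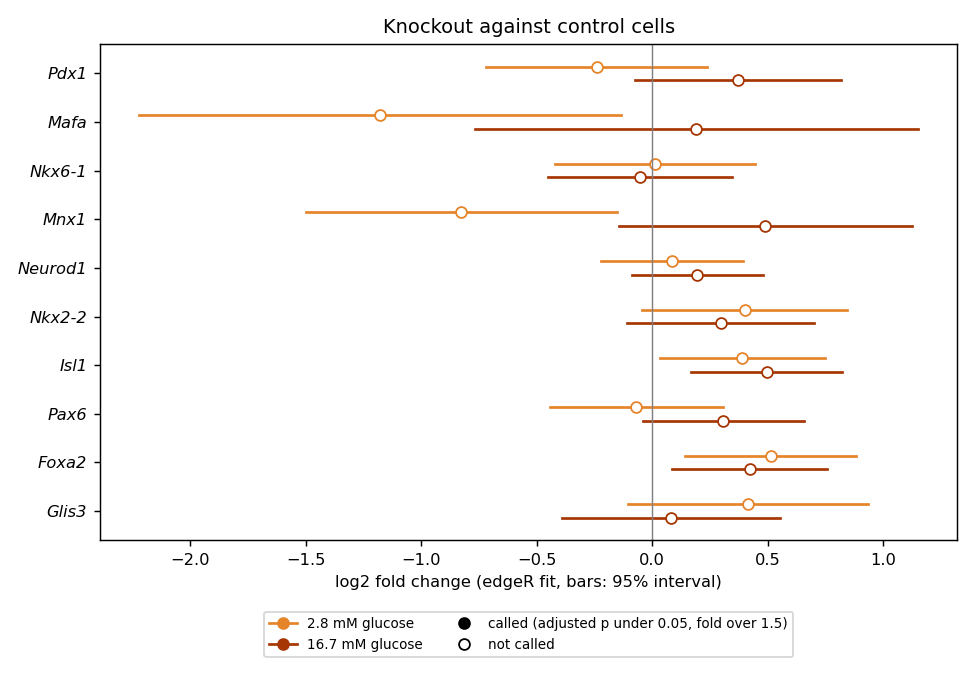
Log2 fold changes of the 10 factors in Pcbp2βKO against control cells at 2.8 mM and at 16.7 mM glucose, with 95% confidence intervals from edgeR. Mafa and Mnx1 have intervals below 0 at 2.8 mM (−2.22 to −0.14 and −1.50 to −0.15) and around 0 at 16.7 mM, and Foxa2 and Isl1 have intervals above 0 at both concentrations.

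Behind the modest change of Nkx2-2 as a gene stood larger and opposite changes of its transcripts. Nkx2-2 lies on chromosome 2 (147019466 to 147036163, minus strand). Transcript Nkx2-2-201 has 2 exons and Nkx2-2-203 shares its coding start but splices from within exon 2 of Nkx2-2-201 to an exon further downstream. Transcript Nkx2-2-204 is annotated as noncoding, has 378 bases and starts at an exon far upstream (147035859 to 147036162), from which it splices to an exon that spans the start of Nkx2-2-201 (147028302 to 147028375, with the start at 147028324). The bases that tell these transcripts apart are shown because the transcripts changed in opposite directions, with capitals for the bases after the junction or, for Nkx2-2-201, for the bases it keeps at the same position.
Nkx2-2-203, exon 2 to exon 3: cccgggcggagaaagCATTTCAAAACCGAC
Nkx2-2-201, same position, unspliced: cccgggcggagaaagGTATGGAGGTGACGC
Nkx2-2-204, exon 1 to exon 2: gtaaggagctggaggGTTCGTGAGTGGAGC
The last 100 bases of exon 1 of Nkx2-2-204 (chr2:147035859-147035958, minus strand, GRCm39), which are part of no protein-coding transcript of the gene, read as follows.
Nkx2-2-204, end of exon 1: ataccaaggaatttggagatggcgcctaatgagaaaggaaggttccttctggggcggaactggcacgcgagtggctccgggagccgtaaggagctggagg

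Nkx2-2-204 was lower at high glucose and higher in Pcbp2βKO cells. It had 4.86, 3.94 and 2.16 CPM in control cells at 2.8 mM and 1.46, 1.23, 0.935 and 1.17 CPM at 16.7 mM. In Pcbp2βKO cells it had 8.49, 8.20, 7.65, 6.81 and 7.91 CPM at 2.8 mM and 4.07, 3.87, 3.69, 2.89 and 3.09 CPM at 16.7 mM. No 2 groups overlapped in either the glucose or the knockout comparisons. In a fit over 32912 transcripts, it fell by 1.56 on the log2 scale with glucose in control cells (SE 0.25, adjusted p = 0.00221) and fell by 1.14 in Pcbp2βKO cells (SE 0.21, adjusted p = 0.00105). The knockout effect was 1.56 ± 0.23 at 16.7 mM (adjusted p = 0.00345) and 1.13 ± 0.25 at 2.8 mM (adjusted p = 0.0418). Of all transcripts, 9.53% and 20.9% were called in the glucose comparisons, and 0.608% and 0.802% in the knockout comparisons at 16.7 and 2.8 mM. The call at 16.7 mM was kept when any 1 sample was left out, whereas the call at 2.8 mM was lost in 7 of 8 such fits, with adjusted p values up to 0.209, and without the 2 samples with the most α cell marker counts (1.18, adjusted p = 0.125). This fit was chosen after the data had been seen.

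The protein-coding transcripts moved the other way with glucose. Nkx2-2-203 had 4.24, 4.55 and 3.98 CPM in control cells at 2.8 mM and 23.1, 10.9, 11.7 and 7.99 CPM at 16.7 mM. In Pcbp2βKO cells it had 5.12, 4.63, 4.61, 5.52 and 3.54 CPM at 2.8 mM and 24.4, 19.9, 27.5, 16.5 and 15.2 CPM at 16.7 mM. Every sample at high glucose was above every sample at low glucose, and Nkx2-2-203 rose by 1.69 ± 0.31 in control cells and 2.16 ± 0.25 in Pcbp2βKO cells (adjusted p = 0.00454 and 4.36e-05). Nkx2-2-201 rose by 0.85 ± 0.22 in control cells (adjusted p = 0.0248), a call lost in 4 of 7 fits that left out a sample, and had a change of 0.50 ± 0.18 in Pcbp2βKO cells (adjusted p = 0.0579). The levels of Nkx2-2-201 and Nkx2-2-203 did not pass in a knockout comparison.

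As a share of the counts of the gene, Nkx2-2-204 made up 27.6%, 20.5% and 12.9% in control cells at 2.8 mM and 2.97%, 4.81%, 2.83% and 5.25% at 16.7 mM. In Pcbp2βKO cells its share was 31.2%, 35.6%, 31.0%, 28.3% and 42.1% at 2.8 mM and 9.21%, 9.79%, 7.82%, 8.51% and 8.88% at 16.7 mM. The share of Nkx2-2-203 went from 23.9% ± 0.163 (SD, n = 3) to 40.1% ± 5.64 (n = 4) in control cells and from 19.9% ± 1.82 to 51.2% ± 5.73 (n = 5 each) in Pcbp2βKO cells. With exact permutation tests of shares, none of 64 tests over 16 transcripts of 6 factors passed after adjustment over all 148912 tests. Of all 148912 tests, 0 passed, so with groups of this size the adjusted test cannot tell these transcripts from others. With 5 samples against 5 the smallest p such an exact test can give is 0.00794, and Nkx2-2-204 reached it for glucose in Pcbp2βKO cells. Groups did not overlap in 12 of the 64 tests, beside 12.7%, 8.27%, 4.79% and 2.28% of all transcripts for glucose in control cells, glucose in Pcbp2βKO cells, the knockout at 2.8 mM and the knockout at 16.7 mM. For glucose these were Nkx2-2-203, Nkx2-2-204 and Pax6-207 in both genotypes, and Pax6-216 in Pcbp2βKO cells. For the knockout they were Nkx2-2-203 and Nkx2-2-204 at 2.8 mM, and Nkx2-2-201, Nkx2-2-204 and Glis3-201 at 16.7 mM. Shares of transcripts of the same gene are not independent of each other. With limma's diffSplice over 28379 transcripts, which compares a transcript with the rest of its gene, Nkx2-2-204 changed by −2.62 and −2.42 with glucose in control and Pcbp2βKO cells (adjusted p = 0.000113 and 4.87e-08), where 2.6% and 9.06% of all transcripts passed. The knockout effect on Nkx2-2-204 usage was 1.07 at 2.8 mM and 1.26 at 16.7 mM (adjusted p = 0.21 and 0.178), and 1.19 averaged over both (adjusted p = 0.00607), where 0.296%, 0.303% and 0.983% of transcripts passed in these comparisons.

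**Figure D5:**
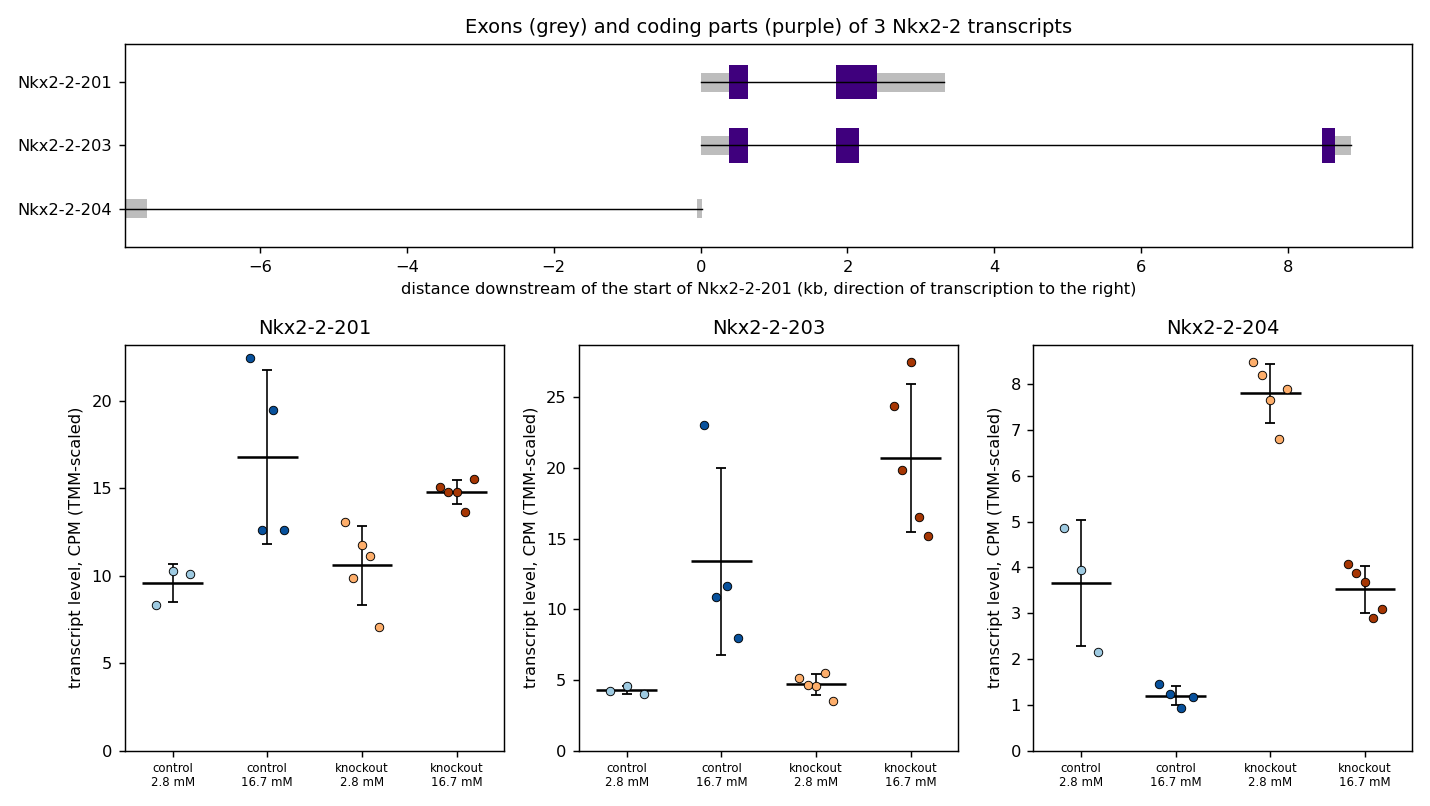
Transcripts of Nkx2-2: exon structure by distance from the start of transcript Nkx2-2-201 (in annotation vM39, where Nkx2-2-203 is a longer version than in the deposited tables), and the CPM of Nkx2-2-201, Nkx2-2-203 and Nkx2-2-204 by sample with group means. Nkx2-2-204 lies between 6.81 and 8.49 CPM in Pcbp2βKO cells at 2.8 mM and between 0.935 and 1.46 CPM in control cells at 16.7 mM, and Nkx2-2-203 is above 7.9 CPM in every sample at 16.7 mM.

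The gene on the opposite strand, Nkx2-2os, was at most 0.457 CPM in any sample, and none of its exons overlaps the exons of Nkx2-2-204. The tables hold no measure of how certain the assignment of reads to transcripts was, and Nkx2-2-203 is 1053 bases long in them but 1356 bases long in annotation vM39. Because Nkx2-2-204 is short, it weighs more in TPM than in counts. This is visible in Nkx2-2 as a gene, which was called higher in Pcbp2βKO cells at 2.8 mM in log2(TPM + 0.1) (1.00, adjusted p = 0.00124) and not in counts (0.40, interval −0.04 to 0.84).

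Among transcripts of the other factors, Pax6-207, Pax6-216 and Glis3-201 had shares that did not overlap between groups in a comparison. Pax6-207, a protein-coding transcript, rose by 1.61 ± 0.37 with glucose in Pcbp2βKO cells (adjusted p = 0.00501), with 10.2 ± 4.82 CPM at 2.8 mM and 30.9 ± 7.91 CPM at 16.7 mM (SD, n = 5 each). Its usage within Pax6 changed by 1.30 in diffSplice (adjusted p = 0.0295). Pax6-216, which is annotated as noncoding, changed in usage by −2.69 in the same comparison (diffSplice, adjusted p = 0.000458). Its level went from 7.72 ± 2.54 to 2.46 ± 1.47 CPM, which did not pass the test of levels (log2 fold change −1.63, adjusted p = 0.0509). Glis3-201, a transcript annotated as a target of nonsense-mediated decay, made up 2.12%, 2.09%, 2.49% and 2.59% of Glis3 in control cells at 16.7 mM and 3.96%, 5.37%, 4.63%, 4.06% and 3.61% in Pcbp2βKO cells. These groups did not overlap (exact permutation p = 0.00794, adjusted p = 0.33), and the transcript level did not pass (log2 fold change 0.97, adjusted p = 0.451). Of the transcripts on the strand opposite to Pax6, Pax6os1 rose by 0.81 ± 0.23 with glucose in Pcbp2βKO cells (adjusted p = 0.0136) and Paupar fell by 0.58 (SE 0.18, adjusted p = 0.0226).

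Genes that these factors are known to act on in β cells were counted from the same fit. Of 17 tested, 8 rose and none fell with glucose in control cells, with a median log2 fold change of 0.63, beside 7.15% of all genes called higher. Without control replicate 2 at 2.8 mM, 5 of them were called. Among the 8 were the insulin genes Ins1 (2.75) and Ins2 (1.66), G6pc2 (2.13), a glucose-6-phosphatase, the prohormone convertase Pcsk1 (1.96), Iapp (1.47), the oxidoreductase Ero1b (1.44) and Hnf4a (0.66). In Pcbp2βKO cells 10 rose, beside 13.4% of all genes called higher, among them Ins1 (5.53), G6pc2 (3.20), the glucose transporter Slc2a2 (2.09) and the GLP-1 receptor Glp1r (0.84), and Slc30a1, a zinc transporter, fell by 1.04. Ins1 and G6pc2 were lower in Pcbp2βKO cells at 2.8 mM by −3.04 ± 0.26 and −1.78 ± 0.38 (adjusted p = 2.32e-06 and 0.0143), and 0 of the 17 were called at 16.7 mM. At 2.8 mM 2.04% of all genes were called, and the count of targets was 4 without control replicate 2, and 1 without control replicate 3 or without the 2 samples with the most α cell marker counts. Ins1 was the only one of them called in the test of genotype and glucose together (2.78 ± 0.36, adjusted p = 0.00902), and none was called there without control replicate 3 at 2.8 mM or without the 2 samples with the most α cell marker counts.

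Binding partners and cofactors of the factors, such as Ldb1, which joins ISL1 to other proteins, and the E protein Tcf3, which pairs with NEUROD1, were counted in the same way. None of 20 was called in any of the 6 comparisons, and Chd4 (0.38), Smarca4 (0.48) and Spop (0.45) passed with glucose in Pcbp2βKO cells below 1.5-fold. Of 10 paralogs, 5 were abundant enough to test, and Foxa3 alone was called (fell by 0.70 with glucose in Pcbp2βKO cells). Of 12 tested transcription factors of other lineages or of progenitors, Myc fell by 1.72 with glucose in control cells and by 2.16 in Pcbp2βKO cells, Hhex, which marks δ cells, fell by 1.44 in Pcbp2βKO cells, and Neurog3, the endocrine progenitor factor, was higher in Pcbp2βKO cells by 1.69 ± 0.33 when averaged over both concentrations (adjusted p = 0.00343). Of all genes, 13.8% and 23.8% were called for glucose in control and Pcbp2βKO cells and 4.19% for the average knockout effect. For the average knockout effect, 1 to 2 of the 12 were called in each of the 17 fits that left out a sample. The numbers called for glucose depended on single samples. Of the 12, 0 were called for glucose in control cells in 5 of the 7 fits that left out a sample (replicate 1 or 2 at 2.8 mM, replicate 1, 2 or 3 at 16.7 mM) and 5 were called without replicate 4 at 16.7 mM. In Pcbp2βKO cells 1 to 3 were called, with 1 without replicate 1 at 16.7 mM, without replicate 2, 4 or 5 at 2.8 mM, or without the 2 samples with the most α cell marker counts. Hhex belongs to the δ cell marker list, whose median sum in Pcbp2βKO cells was 831 CPM at 2.8 mM and 341 CPM at 16.7 mM, and the part of these cells in its value was not tested.

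The promoters of the factors were searched for short motifs on both strands, in the 250 bases before each start in RefSeq (GRCm38.p6 windows, of which the 12 of 9 factors each matched GRCm39 once; Mafa was not in the table). CACGTG, the E-box bound by ChREBP, MYC and USF factors, was in a window of Nkx2-2 and of Pdx1 and in 6.02% of 32851 windows. CAGATG, an E-box of the NEUROD1 type, was in that of Nkx2-2 and in 14.4% of windows. The general form CANNTG was in 8 of the 12 windows of the factors and in 66.2% of all windows. TGACGTCA, the cyclic AMP response element, was in a window of Pax6 and in 1.55% of all windows. TATAAA was in a window of Foxa2 and in 12.4% of all, and neither TAATTA (4.84%) nor TGTTTAC (3.17%) was in a window of any of the 9. Some RefSeq starts lie downstream of the starts in vM39. The window of Pdx1 (147206657 to 147206906) passes the vM39 start at 147206769, and its CACGTG lies after that start. All 250 bases of the window of Nkx6-1 are annotated there as untranslated exon. The bases upstream of Nkx2-2-201 are printed because the second exon of Nkx2-2-204 begins within them (chr2:147028325-147028572, minus strand, GRCm39), with the motifs CACGTG and CAGATG in capitals, the latter read on the other strand.
Nkx2-2, upstream of Nkx2-2-201: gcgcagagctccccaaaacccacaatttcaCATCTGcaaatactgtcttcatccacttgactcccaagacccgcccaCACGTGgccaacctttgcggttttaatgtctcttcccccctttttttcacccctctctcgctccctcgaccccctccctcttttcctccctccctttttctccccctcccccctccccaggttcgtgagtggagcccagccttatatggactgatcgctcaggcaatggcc
The first base of CACGTG lies 171 bases before the start of Nkx2-2-201 and that of CAGATG 218 bases before it. The stretch ggttcgtgagtggagc near the end of the printed sequence holds the start of the second exon of Nkx2-2-204.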

How the data were processed

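PolyA RNA of 17 samples of sorted mouse β cells was analysed. Per the labels and the methods of the study, the authors pseudoaligned paired reads to the mouse transcriptome (mm39, GRCm39) with kallisto and deposited, for each sample, estimated counts per transcript and TPM. Versions of these tools are not given in the sources used here. The deposited estimated counts are not normalized between samples, and the deposited TPM are scaled to effective length and to the same total. No other per-sample columns were present, and no row lacked a gene name.

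Estimated counts were summed per gene identifier and rounded. Library sizes were scaled with TMM (factors 0.752 to 1.29), genes were kept by filterByExpr with the 4 groups, and 4 group means were fitted by quasi-likelihood (glmQLFit and glmQLFTest, edgeR 4.0.16, R 4.3.3) with 13 residual degrees of freedom. This gave 6 contrasts, with Benjamini-Hochberg adjustment over 22784 genes. Called means more than 1.5-fold with an adjusted p under 0.05. The study's own fit held a batch factor whose levels are not given in the sources used here, so no batch term was used. Standard errors follow from the estimate and its F statistic, and CPM use TMM-scaled libraries. The 95% intervals use a t distribution with 13 degrees of freedom, fewer than the test used, and are not adjusted for the number of genes. An interval can therefore include 0 where the unadjusted p is under 0.05, as for Pdx1 with glucose in control cells. Shares of transcripts with at least 5% of a gene's counts in a group were compared with two-sided exact permutation tests. Transcript levels (edgeR) and usage (diffSplice, limma 3.58.1) were added after the data had been seen. DESeq2 1.42.0, limma-voom, limma on log2(TPM + 0.1) and log2(TPM + 1), other scalings and filters and leaving out each sample were alternatives. The edgeR, share and usage steps were tested on simulated data. Replicates of a group differed by more than sampling noise in every pair (chi-square per degree of freedom at least 32.3).

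Named were the 10 factors in every contrast, Pcbp2, Ins1 and Ins2, transcripts tested for shares, antisense genes of a factor and, from each other list, genes called where at most 4 were, otherwise the 4 with the smallest p, and the gene with the highest TPM; further called targets and the cofactors that passed below 1.5-fold were named after their values were seen. Single values of 2 genes in these lists are not reported here. The factors and all lists were chosen with earlier results of these data known. Replicate numbers in the labels were checked for pairing: deviations from group means correlated at 0.20, 0.12 and 0.26 between the 3 numbers shared by the control groups, all above 0.1, whereas at least 1 pair was below 0.1 in every other pair of groups. With the replicate number as a block, the control glucose comparison called 4 factors, as without it. Gene and exon positions are from GENCODE vM39 on GRCm39, in which 54 of the 55 transcripts were found and 36 in the same version.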

Additional observations from a re-analysis of the deposited data

Results flagged for a closer look

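In 4 of the 39 groups of 4 or more samples checked (10 factors and 3 Nkx2-2 transcripts in 3 groups), the highest or lowest sample stood apart from the rest by more than Dixon's 95% critical value, which chance alone does in about 1 group in 20. The level of Pdx1 was 168 CPM in Pcbp2βKO replicate 5 at 16.7 mM, beside 107.0 to 124.6 CPM in the others of its group. Nkx6-1 was 41.45 CPM in the same sample, beside 25.8 to 29.5 CPM, and Foxa2 was 80.13 CPM in it, beside 54.8 to 60.6 CPM. This sample had the highest level of its group for 8 of the 10 factors. Pdx1 was 38.12 CPM in Pcbp2βKO replicate 2 at 2.8 mM, beside 60.0 to 66.6 CPM in the others. That sample was 1 of the 2 with the most α cell marker counts.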

How the results depend on the processing

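With DESeq2, DESeq2 size factors in edgeR, TMM without the insulin genes, no filter on low counts, or without the 2 samples with the most α cell marker counts (chosen after seeing the data), all 60 tests of a factor kept their direction and their side of the threshold. Library scaling mattered most. With total counts, 0 factors were called for glucose in control and 3 in Pcbp2βKO cells, beside 4837 and 7851 of the 22784 genes tested. In limma on log2(TPM + 0.1), 2 and 4 were called for glucose in control and Pcbp2βKO cells, 1 for the knockout at 2.8 mM, 1 at 16.7 mM and 1 on average, and in log2(TPM + 1) the counts were 1, 4, 1, 0 and 1. Of all genes tested, 8902, 12449, 328, 299 and 763 were called on the first scale and 6975, 8831, 283, 190 and 425 on the second. A tximport length offset called 1 factor, Nkx2-2, for the knockout at 2.8 mM and 1 on average, and Nkx2-2 lost its call for glucose in control cells (0.16) and in Pcbp2βKO cells. The offset called 423 of all genes for the knockout at 2.8 mM and 906 on average. Transcript usage passed in 6 tests with diffSplice and in none with shares, where 0 of all 148912 tests passed. Whether replicate numbers paired samples beyond the control groups was not settled, since unmatched numbers were not compared. Between the Pcbp2βKO groups, matched numbers correlated at 0.0664 to 0.193. With the replicate block Mafa was called 1 time for the knockout at 2.8 mM (−1.15) and 1 time on average (−0.71). The block changed no other count of calls among the factors. Among all genes it moved the calls from 3153 to 5024 for glucose in control cells and from 389 to 848 for the knockout at 16.7 mM. Depth limits Mafa and Mnx1 most, with 50 to 2404 and 66 to 392 counts per sample. The cause of the reversals below was not tested.

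Directions turned in log2(TPM + 0.1), and in log2(TPM + 1) with the values given second, for glucose in control cells in Foxa2 (−0.61 and −0.576), Glis3 (−0.32 and −0.26), Isl1 (−0.31 and −0.30), Mnx1 (−0.70 and −0.352), Nkx2-2 (−0.68 and −0.657), Pax6 (−0.42 and −0.411) and Pdx1 (−0.28 and −0.27). For glucose in Pcbp2βKO cells they turned in Foxa2 (−0.95 and −0.912), Glis3 (−0.88 and −0.740), Isl1 (−0.45 and −0.445), Neurod1 (−0.12 and −0.121), Nkx2-2 (−1.09 and −1.07), Nkx6-1 (−0.0628 and −0.0615) and Pax6 (−0.30 and −0.291). In the test of genotype and glucose together, they turned in Isl1 (−0.14 and −0.143) and Neurod1 (−0.15 and −0.142). For the knockout, they turned in Glis3 (−0.0611 and −0.0516) and Mafa (−0.0491 and −0.0126) at 16.7 mM, and in Pax6 (0.0957 and 0.0945) at 2.8 mM. With total counts, Foxa2 (−0.19), Mnx1 (−0.33) and Pax6 (−0.0894) turned for glucose in control cells, Foxa2 (−0.37) and Glis3 (−0.372) in Pcbp2βKO cells, Pax6 (0.0478) for the knockout at 2.8 mM, and Nkx6-1 (0.0565) and Nkx2-2-201 (0.0432) for the average knockout effect. The replicate block turned Mafa at 16.7 mM (−0.27), Pax6 at 2.8 mM (0.0287) and Pdx1 on average (−0.000419). Mnx1 turned for glucose in control cells with limma-voom (−0.00964) and with mean log2 CPM (−0.00840), as did Nkx6-1 for the knockout at 2.8 mM (−0.0508 and −0.0378). The length offset turned Nkx2-2 for glucose in Pcbp2βKO cells (−0.0409), and protein-coding transcripts alone turned its test of genotype and glucose together (0.0640). Shares of TPM turned the change of the Nkx2-2-201 share with glucose (by 7.978 and 4.131 percentage points in control and Pcbp2βKO cells). Without 3 samples that stand apart (control replicate 4 and Pcbp2βKO replicates 4 and 5 at 16.7 mM), Foxa2 turned for glucose in Pcbp2βKO cells (−0.0531), Mafa for the knockout at 16.7 mM (−0.38) and Neurod1 for genotype and glucose together (−0.0132).

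When each sample was left out in turn, 3 to 4 factors were called for glucose in control cells, 6 to 8 in Pcbp2βKO cells and 0 for every knockout comparison and the test of genotype and glucose together. Values that turned ranged as follows. For the knockout at 2.8 mM they ran from −0.0445 to 0.20 for Neurod1, −0.0892 to 0.14 for Nkx6-1 and −0.22 to 0.0416 for Pax6. At 16.7 mM they ran from −0.0124 to 0.17 for Glis3, −0.25 to 0.39 for Mafa and −0.19 to 0.000501 for Nkx6-1. On average they ran from −0.0884 to 0.0437 for Nkx6-1, −0.0400 to 0.15 for Pdx1 and −0.0722 to 0.0740 for Nkx2-2-201. For genotype and glucose together they ran from −0.19 to 0.0473 for Foxa2, −0.00166 to 0.24 for Neurod1, −0.26 to 0.16 for Nkx2-2 and −0.20 to 0.0353 for Nkx6-1. For glucose in control cells they ran from −0.19 to 0.24 for Mnx1, and the change of the Nkx2-2-201 share ran from −4.40 to 2.20 percentage points.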
